A study of Mus musculus with 36 samples.

Results

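The genes described here are, by symbol, those of the nuclear-encoded subunits of the 5 oxidative phosphorylation complexes, read in mouse natural killer (NK) cells. They include Ndufb4c, which the GENCODE annotation used here lists as a processed pseudogene. Rows of the 4 deposited tables were taken when the symbol began with Nduf and a subunit letter (complex I), was Sdha, Sdhb, Sdhc or Sdhd (complex II), or began with Uqcr (complex III), Cox4 to Cox8 (complex IV) or Atp5 (complex V). Symbols with -ps were left out, and a gene was kept in a table when its mean over the libraries was 1 TPM or more. TPM gives a gene's length-corrected share of a library's transcripts on a fixed total. The listed values summed to 934291.8 to 948786.5 TPM in the subset libraries and to about 1000000 TPM in those of the other 3 tables. In the table of sorted subsets, 88 of 32940 listed symbols matched and 81 were kept. In the other 3 tables, of 56923 symbols each, a total of 89 matched, of which 82 were kept in the ionomycin table, 82 in the antibody table and 81 in the tumour table. Cox4i2, Ndufa4l2, Cox8c, Cox7b2, Ndufb11b and Ndufs6b fell under the threshold everywhere, Cox8b everywhere but in the ionomycin table, and Cox7a1 in the ionomycin and tumour tables. The excluded gene nearest to the threshold was Ndufs6b at 0.66 TPM in the subset table, and the kept gene nearest to it was Cox6b2 at 1.22 TPM in the tumour table.

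The series holds 36 poly(A)-selected RNA-seq libraries in 12 groups of 3, and its title concerns functional and desensitized NK cells. The subset table covers splenic CD27-CD11b+ NK cells of WT (B2m+/+, C57BL/6) and B2m-/- (KO) mice, which lack the light chain of MHC class I. Each genotype was sorted into Ly49C+Ly49I+NKG2A+ cells (TP), Ly49C-Ly49I+NKG2A- cells (SP) and Ly49C-Ly49I-NKG2A- cells (TN), so that the groups differ in inhibitory receptors for MHC class I. The ionomycin table holds NK cells purified from WT splenocytes after 22 h with vehicle or ionomycin, a calcium ionophore. In the antibody table, WT splenic NK cells had spent 48 h in medium, on plate-bound anti-NKp46 with anti-NKG2D, or on anti-NKp46 with an antibody to DNAM-1, all of which bind activating receptors. The tumour table has 1 group, CD27-CD11b+ NK cells of B6 mice 10 days after subcutaneous inoculation with 4000000 MC38 B2m-/- cells (a colon carcinoma line), and no control of its own. That description follows the sample titles, while the names of the table's columns hold B2MKO and SP, so which cells the tumour values describe is uncertain. The ages of the animals, and whether cells of several animals were pooled, are not given in the sources used here.

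In oxidative phosphorylation, complexes I and II pass electrons from NADH and succinate through ubiquinone to complex III, and cytochrome c carries them on to complex IV, where oxygen is reduced. Complexes I, III and IV pump protons across the inner mitochondrial membrane, and complex V, the ATP synthase, uses the gradient to make ATP. All subunits of complex II and most of those of the other complexes are encoded in the nucleus, while a few core subunits are made from mitochondrial DNA; activated NK cells are known to raise both glycolysis and respiration.

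The TPM values are relative to each library's total, and read depth is unknown. The libraries had between 12290 and 18096 genes above 0. B2m was at 2915 to 3420 TPM in the WT subset libraries and at 73.9 to 128 TPM in those of KO mice, and 10 NK cell markers together were at 6692 TPM or more in every library. Cd27 transcripts were at 84.5 to 239 TPM in the subset libraries, although the cells were sorted as CD27-. In bulk RNA, a lower level in a group may come from fewer cells of a type or from less RNA per cell, and these cannot be told apart.

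RefSeq promoters on GRCm38.p6 were read for the members as sequence background. For 67 of the 81 subset members, 72 promoters of 250 bases before the start were found, and 4 are shown. They include both paralogs of subunit 6b of complex IV, of which 1 was abundant and 1 at low levels here. Also shown is Cox6a1, whose promoter holds matches to 3 of the motifs searched. The last is Atp5g3, a gene of the membrane ring of the ATP synthase with the lowest adjusted p of the members after antibody stimulation. Capitals mark matches on either strand to the cores of NRF1 (GCGCANGCG), GABP (CCGGAAG), YY1 (AAGATGGCG) and Sp1 (GGGCGG).

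Cox6a1, minus strand, chr5:115348959-115349208
Cox6a1: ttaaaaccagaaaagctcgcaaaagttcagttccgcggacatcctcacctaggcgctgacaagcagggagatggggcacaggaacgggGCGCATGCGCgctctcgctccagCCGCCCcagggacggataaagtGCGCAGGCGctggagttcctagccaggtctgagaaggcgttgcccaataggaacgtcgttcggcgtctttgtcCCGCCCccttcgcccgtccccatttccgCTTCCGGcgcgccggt

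Cox6b1, minus strand, chr7:30626115-30626364
Cox6b1: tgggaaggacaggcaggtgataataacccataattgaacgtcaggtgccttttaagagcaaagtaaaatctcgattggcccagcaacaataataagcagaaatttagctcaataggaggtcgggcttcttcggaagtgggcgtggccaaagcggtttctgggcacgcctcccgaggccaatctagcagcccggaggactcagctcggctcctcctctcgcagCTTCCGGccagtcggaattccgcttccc

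Cox6b2, minus strand, chr7:4753095-4753344
Cox6b2: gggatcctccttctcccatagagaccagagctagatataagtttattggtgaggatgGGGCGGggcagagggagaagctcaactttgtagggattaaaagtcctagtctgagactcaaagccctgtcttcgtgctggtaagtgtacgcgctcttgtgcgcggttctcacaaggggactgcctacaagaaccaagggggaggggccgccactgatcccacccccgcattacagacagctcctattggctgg

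Atp5g3, minus strand, chr2:73911327-73911576
Atp5g3: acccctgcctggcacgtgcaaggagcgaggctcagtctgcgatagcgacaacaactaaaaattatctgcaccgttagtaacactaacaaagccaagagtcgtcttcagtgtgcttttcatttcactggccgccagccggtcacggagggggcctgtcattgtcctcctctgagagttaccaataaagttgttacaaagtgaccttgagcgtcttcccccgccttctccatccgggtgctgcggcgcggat

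The Cox6a1 window held 3 matches to the NRF1 core, of which 2 were the same palindrome read on both strands, with 1 match to the GABP core and 2 to the Sp1 core. Cox6b1 had 1 GABP core and Cox6b2 had 1 Sp1 core, while none of these letters occurred in the window of Atp5g3. NRF1 is a transcription factor known for binding genes of the respiratory chain. Its core was present in 20.8% of the 72 member promoters and in 5.16% of all 32851 promoters of the same length. The GABP core was in 16.7% against 6.91%, the YY1 core in 1.39% against 0.61%, and the Sp1 core in 33.3% against 32.7%. With the 50 bases after the start included, which was the first window tried, the shares were 29.2% against 6.25% for NRF1, 23.6% against 8.86% for GABP, 9.72% against 1.4% for YY1 and 38.9% against 35.7% for Sp1. Member promoters had a median GC content of 56.4% against 52.4% for all, matches to different motifs overlapped in 1 member promoter, and no test was made. A match is a run of letters and does not show that the factor binds there.

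The members were among the abundant transcripts of these NK cells, and their median SD was below that of all genes tested. Their summed TPM made up 1.14% to 1.31% of the listed total in the subset libraries, where that total was below 1000000 TPM. The share was 0.951% to 1.28% in the ionomycin table, 1.15% to 1.43% in the antibody table and 0.975% to 1.04% in the tumour table. The median member had a mean of 110 TPM in the subset table, beside 28.6 TPM over all 12018 genes tested there, and 77 members were at 25 TPM or more in each table. Their median SD between replicates was 0.22 on the log2(TPM + 1) scale in the subset table against 0.31 for all genes. It was 0.38 against 0.58 in the ionomycin table, 0.22 against 0.36 in the antibody table and 0.32 against 0.52 in the tumour table. The genes were not matched by level, so steadiness is not separated from abundance here. Single members of the subset table had SDs from 0.08 (Atp5a1) to 1.90 (Atp5g2). The members' transcripts are short, with a median longest coding transcript of 865 bases for 79 of 81 against 3046 bases for 10772 of the 12018 genes in the GENCODE annotation.

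**Figure D1:**
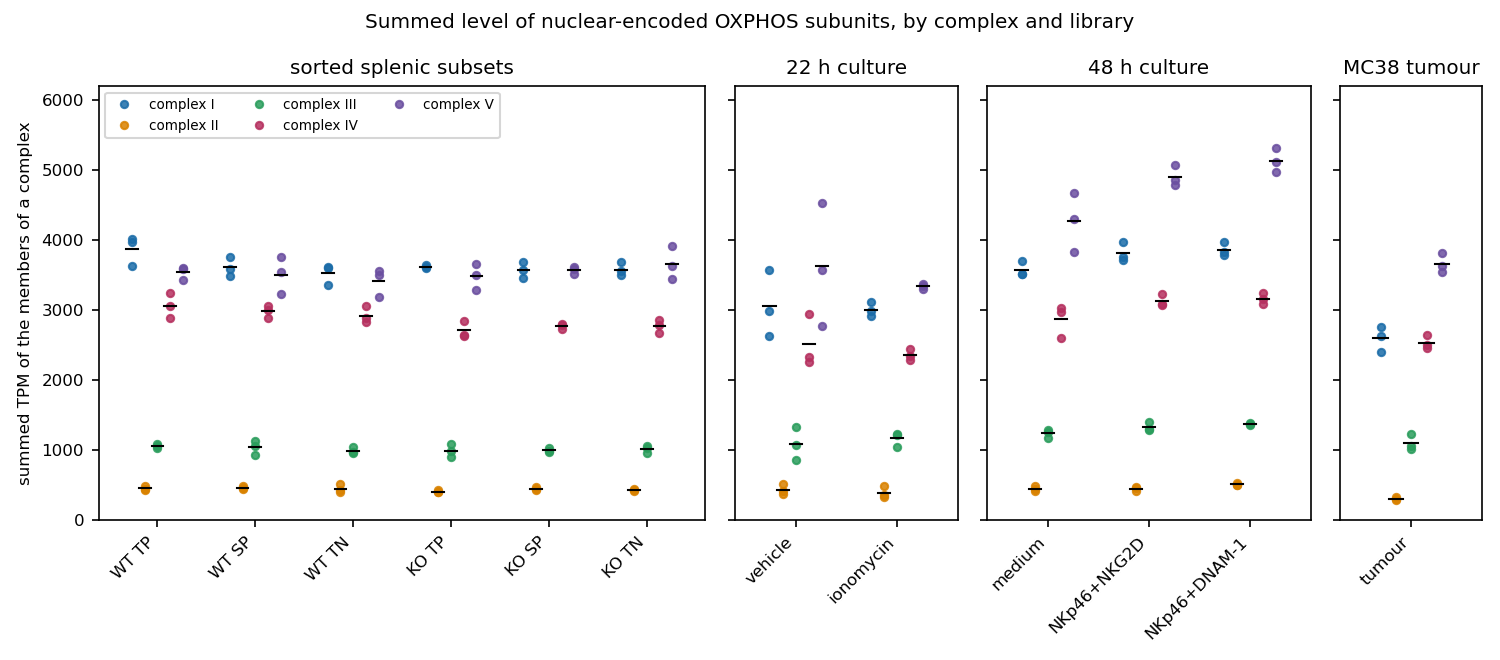
Summed TPM of the kept genes of each complex (vertical axis) in every library of the 4 tables, with points for libraries and lines for group means. In the antibody table, the complex V sum of each stimulated library (4790 to 5308 TPM) lies above the 3 medium libraries (3833 to 4667 TPM), while in the ionomycin table the vehicle libraries spread from 2769 to 4531 TPM.

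Complex IV and complex V genes were the most abundant. In the subset table the median gene was at 82.4 TPM in complex I, 109 TPM in complex II, 107 TPM in complex III, 185 TPM in complex IV and 178 TPM in complex V. The highest members there were Ndufa4 (281 TPM, now counted with complex IV by many authors), Sdha (149 TPM, the flavoprotein of succinate dehydrogenase), Uqcrh (316 TPM, the hinge protein of complex III), Cox4i1 (474 TPM) and Atp5h (528 TPM, a stalk subunit). In the ionomycin table they were Ndufa6 (219 TPM), Sdha (173 TPM), Uqcrh (444 TPM), Cox8a (366 TPM) and Atp5b (422 TPM), the catalytic beta subunit. In the antibody table they were Ndufa4 (273 TPM), Sdha (151 TPM), Uqcrh (388 TPM), Cox4i1 (406 TPM) and Atp5b (546 TPM). Tables are set side by side here without comparison, because each was made separately.

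**Figure D2:**
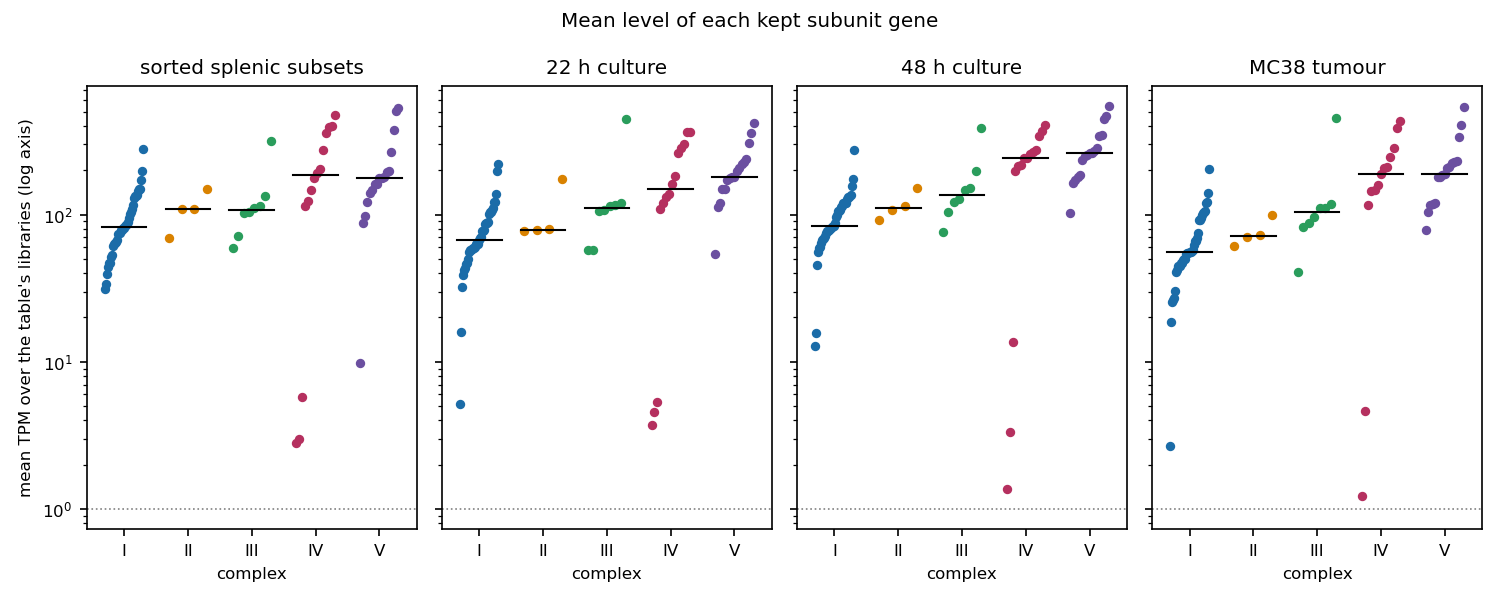
Mean TPM of each kept gene (log axis), by complex and table, with a black line at the median of the complex and a dotted line at 1 TPM. Most genes lie between about 25 TPM and the 528 TPM of Atp5h in the subset table, and the few low points are mainly the complex IV paralogs Cox6a2, Cox6b2 and Cox7a1.

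Where complex IV has a widely expressed and a tissue-restricted paralog, the libraries carried the widely expressed one. In the 3 WT TP libraries Cox6b1 (ENSMUSG00000036751), which binds at the outer face of complex IV, was at 400, 466 and 497 TPM, and Cox6b2 (ENSMUSG00000051811), its testis form, at 0.99, 0 and 1.72 TPM. The liver form Cox6a1 was at 264 to 276 TPM and the heart and muscle form Cox6a2 at 2.46, 9.23 and 4.71 TPM. Cox8a was at 402, 375 and 411 TPM against 0 for Cox8b in all of them, and Cox4i1 at 447, 467 and 491 TPM against 0, 0 and 0.67 TPM for Cox4i2, a form known from lung. Cox7a2 was at 164, 216 and 215 TPM and Cox7a2l at 191, 203 and 238 TPM, while Cox7a1 was at 1.81, 13.8 and 1.76 TPM. These pairs did not overlap in any WT TP library. Elsewhere in the subset libraries, Cox6b2 reached 15.3 TPM in KO TN replicate 2 and 10.2 TPM in WT SP replicate 3, where Cox6b1 was at 273 and 402 TPM. Cox6a2 was at 7.25, 8.78 and 7.48 TPM in KO TN and at 3.46, 4.1 and 2.07 TPM in KO TP. The c-ring genes of the ATP synthase, Atp5g1, Atp5g2 and Atp5g3, encode the same mature protein, so reads can be shared where the sequences match. In WT TP libraries Atp5g3 was at 190 ± 26.2 TPM and Atp5g1 at 99.2 ± 12.3 TPM (SD, n = 3), and Atp5g2 at 0, 43.6 and 1.23 TPM.

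None of the members was called in any of the 12 comparisons, at a Benjamini-Hochberg adjusted p under 0.05 in limma's test over all genes of a table. Of the 12 comparisons, those of antibody stimulation with medium had the highest shares of members above 0.

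**Figure D3:**
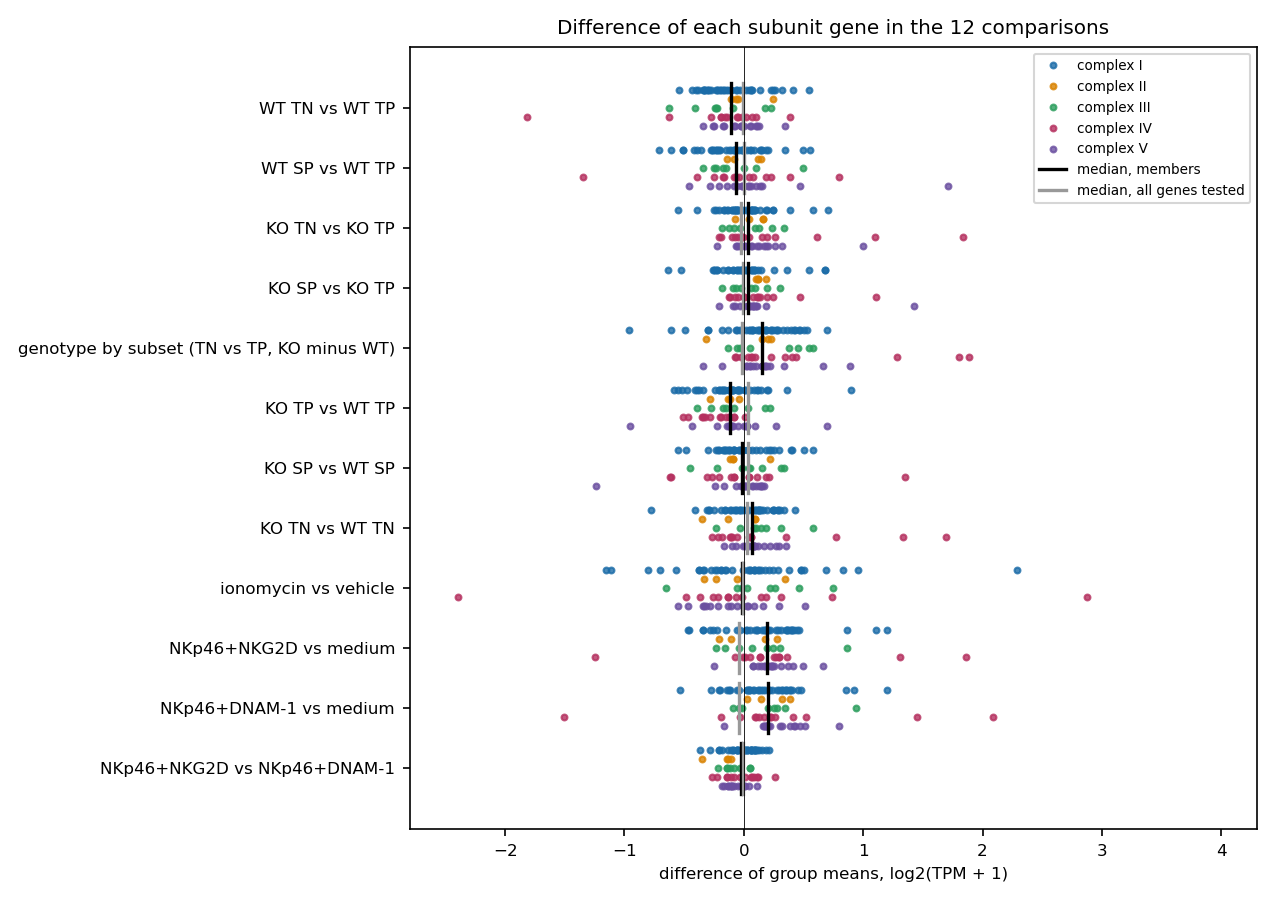
Difference of group means on the log2(TPM + 1) scale (horizontal axis) for each kept gene in the 12 comparisons, coloured by complex. Black lines are member medians and grey lines the medians over all genes tested: after NKp46+DNAM-1 antibodies the member median is 0.20 beside -0.04, and in the KO TP against WT TP comparison it is -0.11 beside 0.04.

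After 48 h on antibodies to NKp46 and DNAM-1, 66 of 82 members (80.5%) had a higher mean than in medium, beside 45.9% of the 13689 genes tested. Their median difference was 0.20 on the log2(TPM + 1) scale against -0.04 for all genes. In complex V 16 of 17 genes were above 0 with a median of 0.22, in complex I 30 of 39, in complex II 4 of 4, in complex III 5 of 8 and in complex IV 11 of 14. The summed member TPM was 11534, 12806 and 12841 in medium and 13761, 14263 and 14063 after these antibodies. The 3 stimulated libraries lay above the 3 in medium. Groups here follow the names of the table's columns, since 6 of the 9 libraries have a title that names another condition; with groups from the titles, the member median was 0.08.

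limma called 0 of 82 members in this comparison, in which 0.782% of all genes were called. In the same test, 18 members (16 higher, 2 lower) had an unadjusted p under 0.05, beside 2458 of all 13689 genes. In 17 members (20.7%) all 3 stimulated libraries lay above all 3 in medium, beside 9.46% of all genes, and in 3 members (3.66%) they lay below, beside 11.6% of all genes. The 95% interval of the difference lay within a 2-fold change for 70 of the 82 members and within 1.5-fold for 41.

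Atp5g3 (ENSMUSG00000018770) had the lowest adjusted p. It was at 164.5, 253 and 306 TPM in medium and at 353, 407 and 465 TPM after anti-NKp46 with DNAM-1 antibodies, and the groups did not overlap. Its difference was 0.79 (SE 0.20, 95% interval 0.35 to 1.24) with an adjusted p of 0.106. Atp5b (ENSMUSG00000025393), the catalytic subunit, was at 484, 465 and 513 TPM in medium and at 562, 611 and 634 TPM after stimulation, again without overlap. It differed by 0.30 (SE 0.08, adjusted p = 0.119). With the replicate number as a block, limma called both, with an adjusted p of 0.0305 for Atp5g3 and 0.0436 for Atp5b, and without medium replicate 3 it called Atp5g3 (0.99, adjusted p = 0.0362). Ndufs6, described with the other antibody pair, was called without medium replicate 2 (1.32, adjusted p = 0.0423; with all libraries 0.86 and 0.240).

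In complexes II and III, Sdhb, the iron-sulfur subunit of succinate dehydrogenase, was at 99.8, 90.8 and 114 TPM in medium and at 124, 126 and 130 TPM after NKp46 and DNAM-1 antibodies, a difference of 0.32 (adjusted p = 0.219). Uqcrq, a small subunit that binds near cytochrome b, was at 44.8, 153 and 116 TPM in medium and at 195, 180 and 164 TPM after stimulation, a difference of 0.94 (adjusted p = 0.230). Both sets of 3 libraries were apart, but the medium libraries of Uqcrq spread over more than 3-fold. Among the complex I genes, Ndufs1, the large iron-sulfur subunit, was lower, at 122, 91.2 and 87.9 TPM in medium and 68.3, 65.2 and 71.7 TPM after stimulation (difference -0.53, adjusted p = 0.135).

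The tissue-restricted paralogs of complex IV gave the 3 largest differences of the 82 members, at low levels. Cox6a2 was at 41.7, 12.8 and 19.6 TPM in medium and at 4.31, 10.5 and 7.59 TPM after NKp46 and DNAM-1 antibodies, with no overlap (difference -1.51, adjusted p = 0.135). Cox6b2 was at 0, 0 and 0.98 TPM in medium and at 8.51, 2.98 and 3.05 TPM after stimulation (difference 2.09, adjusted p = 0.174). Cox7a1 was listed at 0 in all 3 medium libraries and at 2.13, 3.55 and 0.44 TPM after stimulation. The abundant partners of these genes had smaller differences, of 0.09 for Cox6a1, 0.17 for Cox6b1 and 0.23 for Cox7a2.

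The comparison of NKp46 and NKG2D antibodies with medium uses the same 3 medium libraries, so the values are given side by side. There, 63 of 82 members (76.8%) were above 0 with a median of 0.19, beside 45.6% and -0.04 over all genes. In complex V 16 of 17 genes were above 0 (median 0.22), in complex I 29 of 39, in complex II 2 of 4, in complex III 5 of 8 and in complex IV 11 of 14. With groups from the titles the member median was 0.06. limma called 0 of 82 members, while 0.431% of all genes were called. An unadjusted p under 0.05 was reached by 14 members (10 higher, 4 lower), beside 2069 of all 13689 genes. All stimulated libraries lay above medium in 9 members (11%), beside 7.5% of all genes, and below it in 4 (4.88%), beside 9.84%. The summed member TPM of the 3 libraries was 13743, 13386 and 13725, above the medium libraries.

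Atp5g3 was at 377, 336 and 398 TPM after NKp46 and NKG2D antibodies, a difference of 0.66 from medium (SE 0.20, 95% interval 0.21 to 1.11, adjusted p = 0.186). Atp5j2, the f subunit of the ATP synthase, was at 117, 154 and 182 TPM in medium and at 204, 232 and 195 TPM after stimulation (0.49, adjusted p = 0.188). Neither gene overlapped between the groups. Cox7a2 was at 189, 165 and 168 TPM in medium and at 208, 216 and 215 TPM here (0.29, adjusted p = 0.205). Ndufs1 (62.0, 74.8 and 78.3 TPM) and Cox6a2 (10.5, 6.07 and 10.1 TPM) lay below every medium library, with differences of -0.47 and -1.25. Ndufs6, an accessory subunit at the zinc site of complex I, was at 28.6, 92.9 and 42.0 TPM in medium and at 111, 75.7 and 83.5 TPM here; without medium replicate 2, limma called it with a difference of 1.33 and an adjusted p of 0.0416 (all 3 medium libraries: 0.87 and 0.274).

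**Figure D4:**
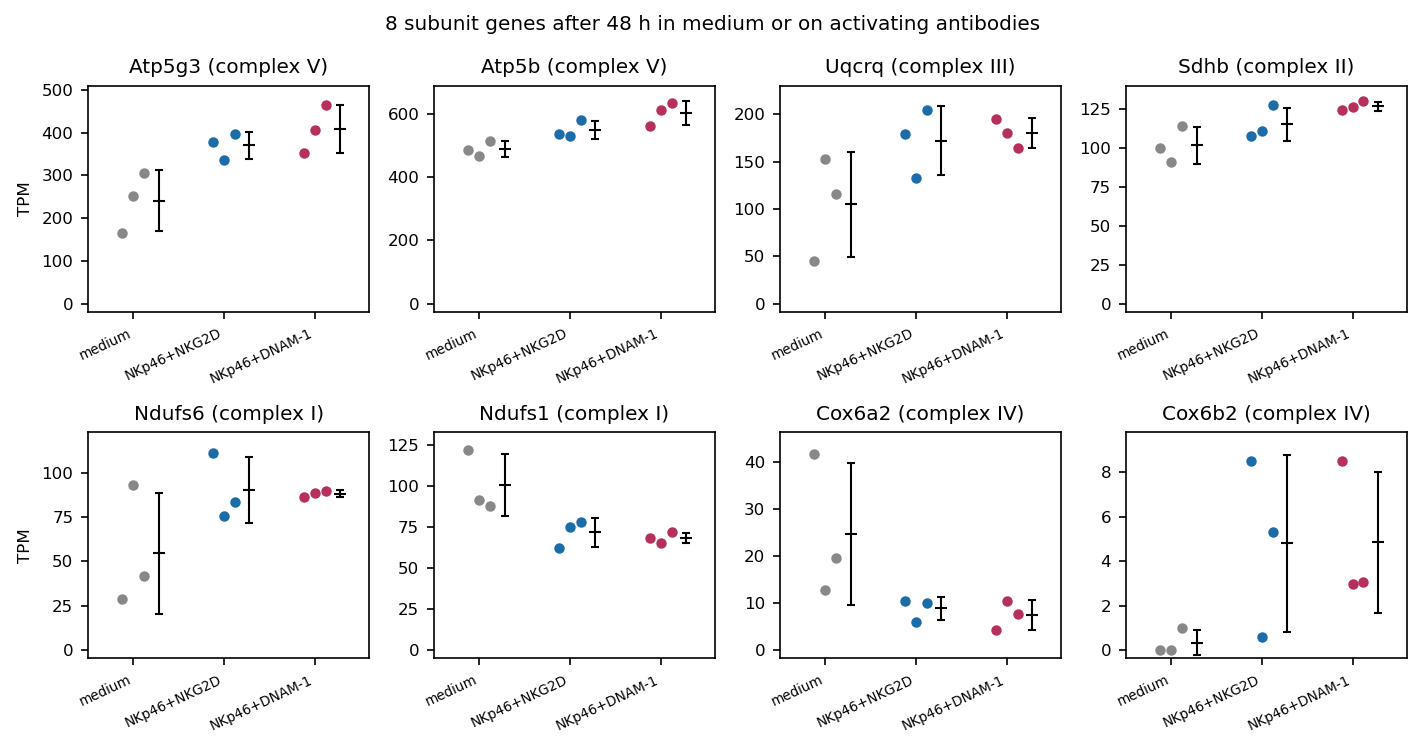
TPM of 8 members in the antibody table, with points for libraries and bars for the mean and SD of 3 libraries in medium or after each antibody pair. Atp5g3, Atp5b and Cox6a2 are apart from medium in all stimulated libraries, and Uqcrq and Ndufs6 have medium libraries more than 3-fold apart.

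Between the antibody pairs 34 of 82 members (41.5%) were higher with NKG2D, with a median of -0.03, beside 48.4% of all genes. limma called 0 members, and 0.0146% of all genes were called. Beside 167 of all 13689 genes, 1 member had an unadjusted p under 0.05. That member, Sdha, named after its values were seen, was at 123, 154 and 119 TPM with NKG2D and at 171, 177 and 156 TPM with DNAM-1 antibodies (-0.35, SE 0.13, adjusted p = 1.0). The 95% interval lay within 1.5-fold for 59 of 82 members.

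Other mitochondrial genes were counted from lists of related genes beside the members, and none of their genes was called after either antibody pair. The 13 mitochondrially encoded subunits were above 0 in 13 of 13 after NKG2D (median 0.14) and in 12 of 13 after DNAM-1 antibodies (0.15), and their summed TPM overlapped with medium. Of the 79 mitochondrial ribosomal proteins 49 were above 0 with NKG2D (0.12) and 55 with DNAM-1 (0.23). Electron carriers and complex III genes outside the members were above 0 in 2 of 7 with both pairs (-0.22 and -0.07). Carriers of ATP and phosphate, counted with uncoupling proteins, were above 0 in 6 of 7 (0.31) and 7 of 7 (0.45), assembly factors in 32 of 54 (0.09) and 31 of 54 (0.11), and tricarboxylic acid cycle genes in 11 of 21 with both (0.01 and 0.03). Regulators of mitochondrial biogenesis were above 0 in 8 of 21 with both pairs (-0.05 and -0.14). The stimulated libraries had 16107 to 18096 genes above 0 against 13555 to 14674 in medium. The T cell markers summed to 27.6 to 71.6 TPM in medium and 20.1 to 39.6 TPM after stimulation. Among those markers, Cd4 and Cd8b1 were at 0 in every library of these groups, and Cd8a was at 0 with DNAM-1 antibodies. The NK cell markers summed to 11458 to 12801 TPM in medium, 13014 to 13840 TPM with NKG2D and 12467 to 13728 TPM with DNAM-1 antibodies. The B cell gene Ighm was at 183 to 216 TPM in medium, 122 to 169 TPM with NKG2D and 144 to 177 TPM with DNAM-1 antibodies. Their part in the results was not tested.

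In WT mice, 26 of 81 members (32.1%) had a higher mean in TN than in TP cells, with a median difference of -0.11, beside 47.7% and -0.01 over all 12018 genes. limma called 0 members, and 1.31% of all genes were called. An unadjusted p under 0.05 was found for 9 members, all lower, beside 1504 of all 12018 genes. The 3 TN libraries lay below the 3 TP libraries in 12 members (14.8%) and above in 0, beside 7.95% and 6.62% of all genes. The summed member TPM was 11452, 12106 and 12354 in WT TP and 11286 ± 194 in WT TN. The 12 members below were spread over complex I (7 genes), III (Uqcrb), IV (Cox8a, Cox6c, Cox7a1) and V (Atp5d).

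Cox6c (ENSMUSG00000014313), a small membrane subunit of complex IV, had the lowest adjusted p of this comparison. It was at 167, 173 and 179 TPM in WT TP and at 85.2, 117 and 142 TPM in WT TN, a difference of -0.62 (SE 0.18, 95% interval -1.003 to -0.24, adjusted p = 0.117). In KO mice the same gene was at 156, 177 and 160 TPM in TP and 164, 150 and 122 TPM in TN, where the groups overlapped. Ndufb9, an accessory subunit of complex I, was at 96.8, 119 and 96.9 TPM in WT TP and at 66.8, 55.9 and 96.2 TPM in WT TN (-0.54, adjusted p = 0.202). Ndufa13, which is also known as GRIM-19, was at 87.8, 98.2 and 85.3 TPM against 79.0, 69.6 and 65.6 TPM (-0.34, adjusted p = 0.223). Uqcrb, which binds ubiquinone in complex III, was at 103, 112 and 123 TPM against 69.2, 53.6 and 102 TPM (-0.63, adjusted p = 0.265). The intervals of 71 members lay within 2-fold and those of 41 within 1.5-fold. Ighm, the immunoglobulin heavy chain gene of B cells, was at 268 to 291 TPM in WT TN and 125 to 148 TPM in WT TP, and the NK cell markers summed to 19570 to 20007 against 22097 to 23269 TPM. Their part in the differences was not tested. Without WT TP replicate 1, limma called Ndufa8, a complex I subunit of the intermembrane space (-0.62, adjusted p = 0.0295; with all libraries -0.44 and 0.177).

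WT SP cells shared the WT TP libraries, and 32 of 81 members (39.5%) were higher in SP, with a median of -0.07, beside 48.7% of all genes. limma called 0 members and 0.191% of all genes. At an unadjusted p under 0.05 there were 8 members (1 higher, 7 lower), beside 927 of all 12018 genes. Ndufs3, a core subunit of complex I, was at 82.6, 77.0 and 81.4 TPM in WT SP and at 117, 114 and 174 TPM in WT TP (-0.71, SE 0.19, adjusted p = 0.229). All SP libraries lay above all TP libraries in 0 members and below in 3 (3.7%), beside 5.19% and 5.37% of all genes.

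In KO mice the members were about evenly divided by the direction of the mean difference. Between TN and TP 44 of 81 (54.3%) were higher in TN, with a median of 0.03 beside 44.7% and -0.03 of all genes. limma called 0 members and 0.524% of all genes. At an unadjusted p under 0.05 there were 3 members (2 higher, 1 lower), beside 773 of all 12018 genes. All TN libraries lay above all TP libraries in 9 members (11.1%) and below in 2 (2.47%), beside 5.67% and 7.49% of all genes. Between KO SP and KO TP 46 (56.8%) were higher in SP, with a median of 0.04 beside 48.2% of all genes. limma called 0 members and 0.2% of all genes. An unadjusted p under 0.05 was found for 2 members (1 higher, 1 lower), beside 352 of all 12018 genes. All SP libraries lay above all TP libraries in 4 members (4.94%) and below in 2 (2.47%), beside 4.75% and 6.14% of all genes. The difference between the genotypes in TN against TP was tested directly. It was above 0 in 62 of 81 members (76.5%) with a median of 0.15, beside 48.5% and -0.01 of all genes. limma called 0 members and 0.025% of all genes. An unadjusted p under 0.05 was reached by 7 members (5 above 0, 2 below), beside 754 of all 12018 genes. Ndufa8 had the lowest adjusted p (0.53, adjusted p = 0.718). This comparison shares its 4 groups with those before it, and 62 intervals lay within 2-fold but 24 within 1.5-fold.

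In KO TP cells 22 of 81 members (27.2%) had a higher mean than in WT TP cells, with a median of -0.11 beside 55% and 0.04 of all genes. The differences were above 0 in 1 of 14 genes of complex IV (median -0.20) and in 0 of 4 of complex II. limma called 0 members and 1.59% of all genes. At an unadjusted p under 0.05 there were 10 members (1 higher, 9 lower), beside 1421 of all 12018 genes. KO libraries lay below WT libraries in 10 members (12.3%) and above in 1 (1.23%), beside 7.14% and 11.1% of all genes. The complex IV sum was 2886, 3050 and 3242 TPM in WT TP, and the KO TP libraries, at 2629, 2847 and 2641 TPM, were all lower. The same WT TP libraries entered the comparisons with WT TN and WT SP above, so those differences and these are not independent. Over all members, the mean sum of WT TP, 11970 TPM, was the highest of the subset groups, beside 11189 to 11591 TPM in the others. Single libraries overlapped, since WT TP replicate 1 (11452 TPM) lay below WT SP replicate 3 (12081 TPM) and KO TN replicate 1 (11833 TPM).

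Sdha (ENSMUSG00000021577) was measured at 177, 167 and 153 TPM in WT TP against 142, 133 and 133 TPM in KO TP, a difference of -0.28 (SE 0.09, 95% interval -0.48 to -0.09, adjusted p = 0.172). Ndufa10, an accessory subunit of complex I, was at 193, 170 and 154 TPM against 119, 131 and 101 TPM (-0.55, adjusted p = 0.279). Both were without overlap. Ndufa5 was the 1 member above in every KO library, at 82.1, 61.9 and 126 TPM against 57.3, 28.9 and 57.5 TPM in WT TP (0.90, adjusted p = 0.262). Without KO TP replicate 2, limma called Cox5a, a subunit on the matrix side of complex IV (-0.57, adjusted p = 0.0314; with all libraries -0.34 and 0.398). In KO TP the 8 neutrophil markers summed to 61.0 to 218 TPM with all 8 detected, while in the other subset groups they reached at most 5.85 TPM and were all at 0 in WT TP. The 5 plasma cell markers summed to 85.3 to 190 TPM in KO TP, with Tnfrsf17 at 0, and to at most 13.1 TPM elsewhere. Macrophage and monocyte markers summed to 30.5 to 59.8 TPM in KO TP and 19.5 to 23.2 TPM in WT TP. T cell markers summed to 12.5 to 17.6 against 3.35 to 4.96 TPM, with Cd8a at 0 in KO TP and Cd3e and Cd8b1 at 0 in WT TP. Ighm was at 159 to 216 TPM in KO TP and 125 to 148 TPM in WT TP. Their part in these differences was not tested.

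In SP and TN cells the median differences between KO and WT were nearer to 0. The difference from TP cells is the genotype by subset test above for TN and was not tested for SP. In SP 38 of 81 (46.9%) were higher in KO with a median of -0.02, beside 54.6% and 0.03 of all genes. limma called 0 members and 1.35% of all genes. An unadjusted p under 0.05 was found for 6 members (2 higher, 4 lower), beside 1403 of all 12018 genes. Cox7a2l was at 240, 217 and 193 TPM in WT SP and at 172, 175 and 174 TPM in KO SP (-0.31, adjusted p = 0.183). All KO SP libraries lay above all WT SP libraries in 2 members (2.47%) and below in 9 (11.1%), beside 11.1% and 7.78% of all genes. In TN 48 (59.3%) were higher in KO with a median of 0.07, beside 53.4% and 0.02 of all genes. limma called 0 members and 0.716% of all genes. At an unadjusted p under 0.05 there were 8 members (3 higher, 5 lower), beside 1263 of all 12018 genes. Atp5o, the stalk subunit known as OSCP, was at 143, 146 and 150 TPM in WT TN and at 175, 171 and 195.5 TPM in KO TN without overlap (0.30, SE 0.10, adjusted p = 0.252). All KO TN libraries lay above all WT TN libraries in 6 members (7.41%) and below in 7 (8.64%), beside 7.95% and 5.76% of all genes.

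Of the related gene lists, the subset table had 2 called genes. Myc, a transcription factor known to drive growth, was at 53.9, 64.3 and 57.0 TPM in WT TN and at 36.5, 41.2 and 26.2 TPM in WT TP (0.76, SE 0.17, adjusted p = 0.0389). Mrps16, of the small mitochondrial ribosomal subunit, was at 45.8, 48.2 and 60.4 TPM in WT TP against 26.5, 35.2 and 19.9 TPM in KO TP (-0.92, SE 0.20, adjusted p = 0.0232). The groups did not overlap for either gene. Myc remained called in 6 of 14 alternative analyses and Mrps16 in 9 of 14; leaving out 1 library ended the call of Myc for each library but WT TP replicate 2 (adjusted p of up to 0.160) and that of Mrps16 for WT TP replicates 2 and 3 and KO TP replicates 1 and 3 (up to 0.128). With only the compared groups fitted, the adjusted p was 0.329 for Myc and 0.219 for Mrps16, and the call of Myc was also lost with no filter on low values and with no variance trend.

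Ionomycin gave no common direction. Of 82 members 38 (46.3%) were higher after 22 h of ionomycin than with vehicle, with a median of -0.02, beside 49.7% of the 14372 genes tested. limma called 0 members and 2.91% of all genes. An unadjusted p under 0.05 was reached by 8 members (4 higher, 4 lower), beside 2169 of all 14372 genes. The groups did not overlap in 14 members, 5 higher (6.1%, beside 10.5% of all genes) and 9 lower (11%, beside 9.57%). The vehicle libraries summed to 12771, 9811 and 9508 TPM and the ionomycin libraries to 10177, 10142 and 10415 TPM, so that the vehicle libraries spread over a wider range than the treated ones. The intervals were wide, with a median half-width of 0.70 on the log2 scale; 45 lay within 2-fold and 4 within 1.5-fold.

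Cox6b2 was listed at 0 in all 3 vehicle libraries and at 0.98, 11.6 and 14.7 TPM after ionomycin (adjusted p = 0.151, the lowest of the members). Cox8b was at 10.7, 11.5 and 0 TPM with vehicle and listed at 0 after ionomycin (adjusted p = 0.322, and 0.0317 without vehicle replicate 3). Ndufs8 (ENSMUSG00000059734), an iron-sulfur subunit of complex I, was at 42.3, 51.6 and 25.3 TPM with vehicle and at 68.1, 78.3 and 78.8 TPM after ionomycin, without overlap (0.96, SE 0.31, adjusted p = 0.174). Cox7a2l was at 136, 187 and 279 TPM against 298, 312 and 361 TPM (0.74, adjusted p = 0.241). Lower after ionomycin were Ndufb1, at 65.9, 39.7 and 102 TPM against 32.2, 37.2 and 20.9 TPM (-1.11, adjusted p = 0.222), and Cox8a, at 376, 396 and 423 TPM against 317, 339 and 342 TPM. Atp5g3 was at 261, 168 and 175 TPM with vehicle and 144, 145 and 140 TPM after ionomycin, and Atp5b, at 647, 392 and 341 TPM against 440, 364 and 346 TPM, overlapped.

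**Figure D5:**
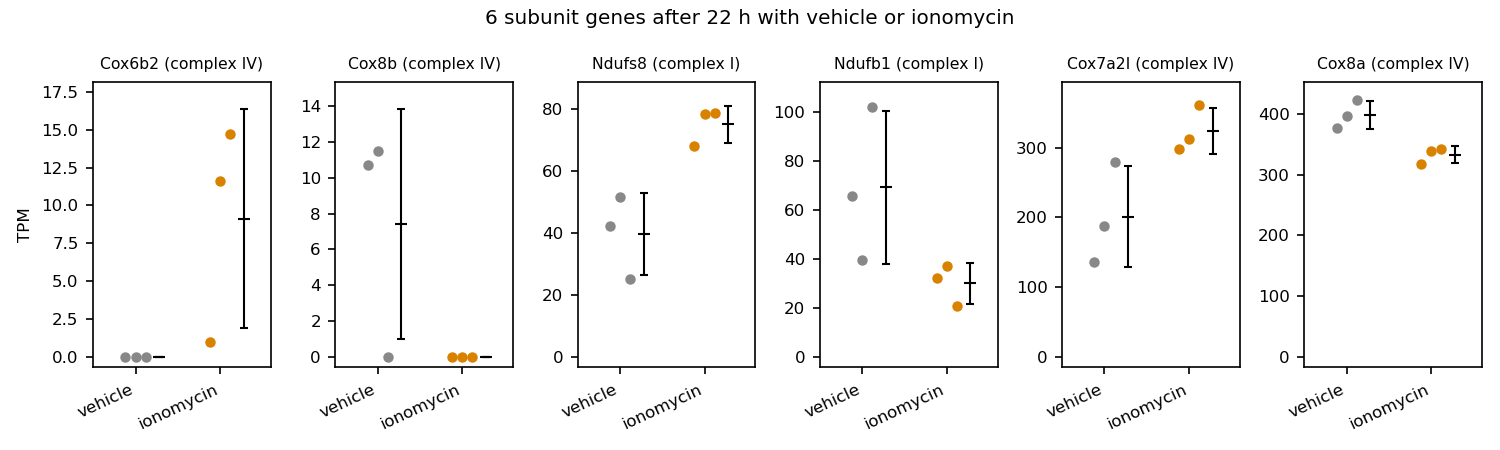
TPM of 6 members with vehicle or ionomycin, with points for libraries and bars for the mean and SD of 3 libraries. Ndufs8 and Cox7a2l are higher and Ndufb1 and Cox8a lower in each ionomycin library than in each vehicle library. Cox6b2 is at 0 in every vehicle library and Cox8b in every ionomycin library.

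Etfb, a subunit of the flavoprotein that feeds electrons from fatty acid oxidation to ubiquinone, was the 1 called gene of the related lists here. It was at 175, 150 and 107 TPM with vehicle and at 424, 506 and 420 TPM after ionomycin (1.66, SE 0.23, adjusted p = 0.00972), and remained called in 8 of 13 alternative analyses. The call was lost without vehicle replicate 2, without any 1 ionomycin replicate and without the variance trend, with an adjusted p of up to 0.134. The NK cell markers summed to 9598 to 16169 TPM with vehicle and 6692 to 8699 TPM after ionomycin, and 13904 to 14578 against 15157 to 15483 genes were above 0. T cell markers summed to 2.24 to 7.87 TPM with vehicle and 12.8 to 25.3 TPM after ionomycin, with Cd4, Cd8a and Cd8b1 at 0 in both, and neutrophil markers to 0 to 377 and 0 to 120 TPM. Their part in the members' values was not tested.

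In the tumour table the 81 members summed to 9747, 10421 and 10388 TPM. The highest were Ndufa4 (203 TPM), Sdha (99.8 TPM), Uqcrh (454 TPM), Cox4i1 (434 TPM) and Atp5b (539 TPM), and Cox6b2 was the lowest kept member (1.22 TPM). The steadiest member was Atp5d, the delta subunit of the ATP synthase, with an SD of 0.02 on the log2(TPM + 1) scale, and the most variable was Ndufa11 with 2.88, at 43.9, 32.4 and 0.23 TPM. No comparison was made, because this table has no other group.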

How the data were processed

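Poly(A) RNA of mouse NK cells was sequenced in 36 libraries. The authors deposited 4 tables of TPM values per gene; the tools STAR and RSEM and the build GRCm39 are listed in the submitters' processing notes, without versions. Read counts were not used here, so depth is unknown. Groups follow the sample labels, except in the antibody table, where column names were followed; in the tumour table the column names differ from the titles.

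Values were tested as log2(TPM + 1) with limma 3.58.1 in R 4.3.3 (group means with contrasts, intensity trend, two-sided). Genes with a mean of 1 TPM or more were tested, with Benjamini-Hochberg adjustment over all genes of each of the 12 comparisons and a threshold of 0.05. An exact permutation test of 3 against 3 libraries cannot go below 0.1. The code was tested on simulated data. Where nothing says that libraries came from separate animals, p-values measure only the spread between them.

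Members and gene lists were chosen with earlier results of these data known. Named genes were called members, the highest member of each complex, listed paralogs and called genes of related lists; others, such as those of lowest adjusted p, were named after their values were seen. Mitochondrially encoded genes are listed without the mt- prefix, so their pattern was adapted after the files were seen. Alternatives were a pseudocount of 0.1, filters of 0 and 5 TPM, median-of-ratios and quantile scaling, no trend, only the compared groups, title groups, a replicate block and each replicate left out. In the subset and antibody tables the column names join the replicate number to the genotype, which may mark 1 mouse, but no label says so.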

Additional observations from a re-analysis of the deposited data

How the results depend on the processing

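No member was called in the 12 comparisons as reported, and the count stayed at 0 in 169 of 176 alternative analyses. With 1 replicate left out, the count ranged from 0 to 1 in WT TN against WT TP (Ndufa8), KO TP against WT TP (Cox5a), ionomycin against vehicle (Cox8b, adjusted p = 0.0317, without vehicle replicate 3), and NKp46+NKG2D against medium (Ndufs6); it also ranged from 0 to 1 in NKp46+DNAM-1 against medium, where Ndufs6 was called without medium replicate 2 (1.32, adjusted p = 0.0423; all libraries 0.86 and 0.240) and Atp5g3 without medium replicate 3 (0.99, adjusted p = 0.0362). With the replicate block the count in NKp46+DNAM-1 against medium was 2 (Atp5g3 and Atp5b), and the block changed no other member call. These genes were named after their values were seen, and the cause was not tested. Same-numbered libraries of different groups had a mean correlation of deviations of 0.064 in the antibody table, over 0.1 in 1 of 9 pairs, 0.062 in the ionomycin table and 0.01 in the subset table. Means over so few pairs cannot decide whether a shared number pairs the libraries. In NKp46+DNAM-1 against medium, the block raised the calls over all genes from 107 to 528.

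The median member difference was 0.06 to 0.26 after NKp46+NKG2D and 0.08 to 0.27 after NKp46+DNAM-1 over the alternatives that kept all libraries, with the lowest values under the title groups, and 0.10 to 0.22 and 0.14 to 0.24 with 1 replicate left out. It ranged from -0.16 to -0.11 in KO TP against WT TP, from -0.11 to -0.09 in WT TN against WT TP and from -0.02 to 0.07 for ionomycin, where leaving out 1 replicate gave -0.18 to 0.15.

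Calls over all genes moved by more than the members' did. They were 157 (21 to 170 over the alternatives) in WT TN against TP, 23 (8 to 27) in WT SP against TP, 63 (33 to 82) in KO TN against TP, 24 (15 to 41) in KO SP against TP, 3 (0 to 10) in the genotype by subset test, 191 (43 to 195), 162 (68 to 178) and 86 (12 to 113) in KO against WT TP, SP and TN, and 418 (3 without ionomycin replicate 2 to 484) for ionomycin. They were 59 (0 with title groups to 257) after NKp46+NKG2D, 107 (1 with title groups to 528 with the replicate block) after NKp46+DNAM-1 and 2 (0 to 4) between the antibody pairs.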

Other observations

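Some members have near-identical copies between which reads can be shared, and their levels are uncertain. Atp5g2 is named here because, of 88 symbols listed in all tables, it alone passed a 4-fold screen of mean TPM + 1. It was at 9.81 TPM in the subset table and 240, 283 and 179 TPM in the ionomycin, antibody and tumour tables. The subset table lists 32940 symbols and the others 56923, and their totals differ. The screen is therefore no comparison of groups, and the cause was not tested. Ndufb4 was at 33.9, 5.16, 15.8 and 2.69 TPM in the subset, ionomycin, antibody and tumour tables, and its copy Ndufb4c at 80.8, 68.9, 105 and 65.9 TPM. Ndufb4b had a mean of 16.0, 12.8 and 18.6 TPM in the latter 3 tables and was the most variable member in the ionomycin and antibody tables, with SDs of 2.02 and 2.68 on the log2(TPM + 1) scale. Ndufb4c has transcripts of the type processed pseudogene in the GENCODE annotation, and Ndufb1 has the type bidirectional promoter lncRNA. Both were kept in every table and enter the complex I counts and sums above.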
